A study of Mus musculus with 6 samples.

Results

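The genes described here encode components and regulators of complement, and were chosen by symbol: C1qa, C1qb, C1qc, C1s1, C2, C3, Cfb, Serping1 and C3ar1. Of these 9 symbols 8 had a probe set annotated to them alone, with 11 probe sets in all among 20380 such probe sets other than controls, and 8 genes among 12393 tested. C3, the central complement protein, had no probe set annotated to it alone in the table used and was not analysed here. The miR-34a group held 3 samples of 344SQ, a metastatic mouse lung cancer line with high Zeb1 that the labels call a KP line, made to express miR-34a inducibly. The vector group held 3 samples of the same line with a control vector. The promoter of the inducible construct, the inducer, its dose and its time are not given in the labels. The material is described as primary tumours of injected mice in the design text and in the titles of the miR-34a samples, and as cells in the other fields. The age, strain and sex of any host mice are not given. Whether replicates are separate mice or cultures is not stated, so the spread behind each p-value may be technical.

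Complement is a cascade of plasma and tissue proteins that tags surfaces for uptake and recruits leukocytes. In the classical pathway C1q, assembled from the products of C1qa, C1qb and C1qc, binds immune complexes or surfaces and activates the proteases C1r and C1s, which cleave C4 and C2 into a C3 convertase. Factor B forms the convertase of the alternative pathway, C1 inhibitor (Serping1) blocks C1r and C1s, and the small fragment of C3 acts through the receptor C3ar1. In tissues C1q is made mainly by macrophages and dendritic cells, whereas C1s, C1r and C1 inhibitor are also made by fibroblasts. The microRNA expressed in the miR-34a group is shown because it defines the comparison; its seed, bases 2 to 8, is in capitals, and the sequence is that of RefSeq on GRCm38.p6, chr4:150068473-150068494, plus strand.
mmu-miR-34a-5p: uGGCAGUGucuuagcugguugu

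The arrays were not equally alike. Vector 1 stood apart from the other arrays, with Pearson correlations across genes of 0.969 and 0.972 with vector 2 and vector 3, against 0.993 between these and 0.992 to 0.996 between miR-34a arrays. The differences of the complement genes are therefore also given without vector 1. Array medians of the deposited intensities ran from 466.7 to 484.2, and with 3 arrays in each group precision is limited throughout. Differences are in log2(intensity + 16), miR-34a minus vector, and a gene is said to rise or fall where its adjusted p from limma over all genes was under 0.05. By that rule 6.5% of all genes were higher and 5.25% lower in miR-34a samples. In 20.8% of all genes the 3 miR-34a values all lay above the 3 vector values. The median difference over all genes was 0.02.

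Of the 8 complement genes measured, 1 rose, C1qb, and 0 fell. All 8 differences were above 0, as were those of 54.3% of all genes, and their median was 0.61, or 0.41 without vector 1. The members were selected with these data in view, so this count is a description. Vector 1 was the lowest of the 6 arrays for 6 of the 8 genes, namely C1qa, C1qb, C1qc, C1s1, C2 and Serping1. In 3 genes, the C1q subunits, all miR-34a values lay above all vector values, beside 20.8% of all genes. Without vector 1, C1qa and C1qb passed, where 10.1% of all genes passed as higher. Without vector 2, C1qa passed (limma adjusted p = 0.0452) and C1qb did not, where 5.93% of all genes passed as higher.

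**Figure D1:**
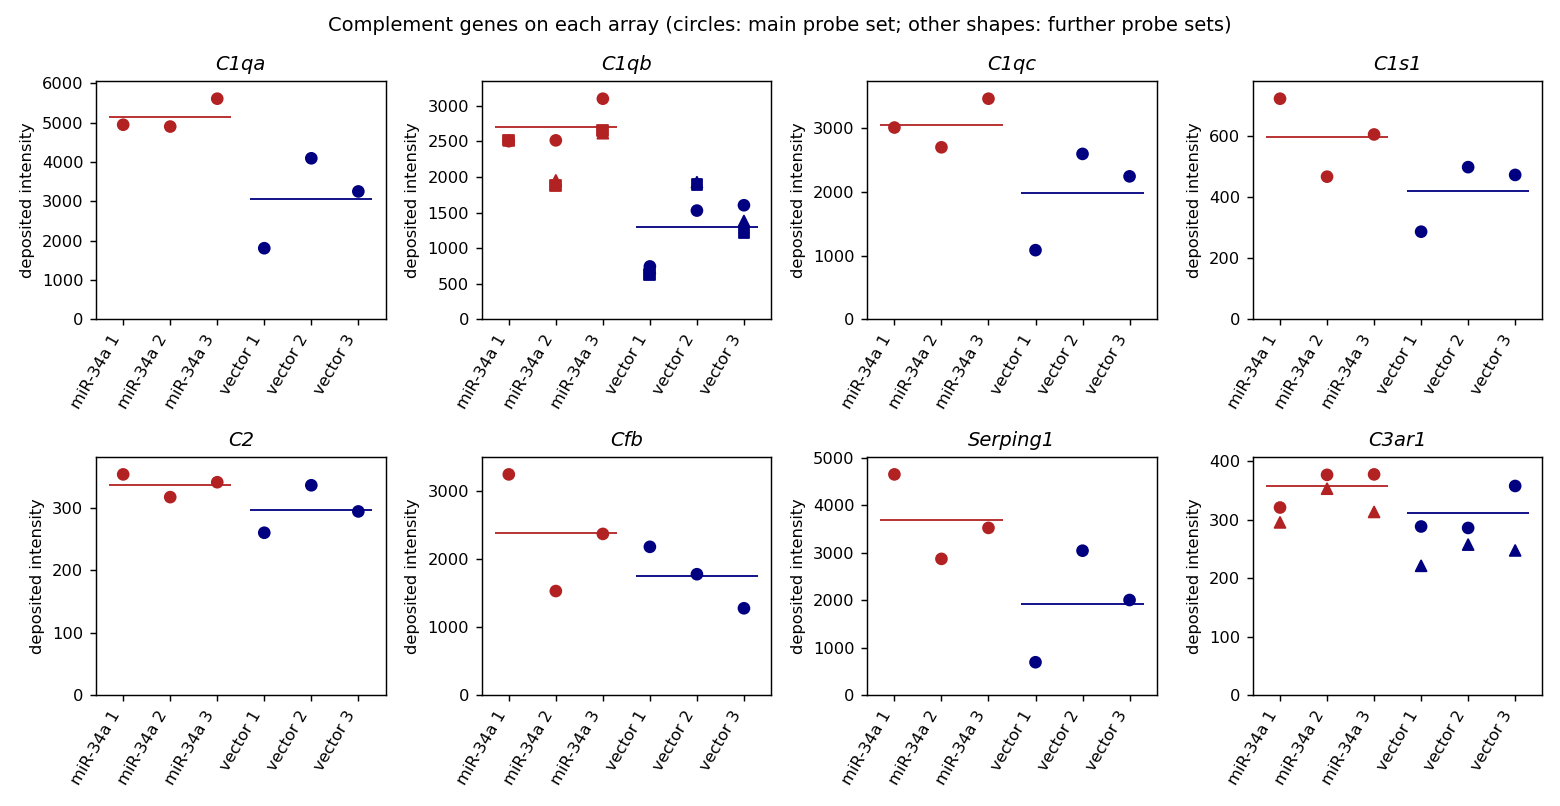
Deposited intensity (linear axis from 0) of 8 complement genes on each of the 6 arrays, miR-34a in red and vector in dark blue; circles are the main probe set, other shapes further probe sets, and lines the group means of the main probe set. The 3 miR-34a circles of C1qa, C1qb and C1qc lie above the 3 vector circles, and vector 1 is the lowest circle in 6 panels.

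The C1q subunits form the recognition part of the classical pathway. C1qa, which encodes the A chain, had intensities of 4945, 4899 and 5606 in miR-34a samples 1, 2 and 3, against 1809, 4093 and 3251 in vector samples 1, 2 and 3. The miR-34a samples were close together and all above the vector samples, among which vector 1 was by far the lowest. On the log2 scale C1qa averaged 12.33 ± 0.11 in miR-34a and 11.50 ± 0.60 in vector samples (SD, n = 3 each), a difference of 0.83 ± 0.27 (SE) or 1.78-fold that did not pass (limma adjusted p = 0.0986). Without vector 1 the difference was 0.49 ± 0.12 and passed (limma adjusted p = 0.0300), so the smaller difference was the one that passed. The spread among vector samples, 2.25-fold between the highest and lowest, exceeded the difference between group means. In bulk samples fewer cells of a type and less RNA per cell cannot be told apart, which applies to every gene below.

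C1qb, which encodes the B chain, had intensities of 2502, 2514 and 3099 in miR-34a samples 1, 2 and 3, against 745, 1528 and 1603 in vector samples 1, 2 and 3. All miR-34a values exceeded all vector values. The log2 means were 11.40 ± 0.18 in miR-34a and 10.28 ± 0.61 in vector samples (SD, n = 3 each), and the difference was 1.13 ± 0.28 (SE; 95% confidence interval 0.46 to 1.80), 2.19-fold (limma adjusted p = 0.0463). The call lay close to the threshold: the adjusted p ran from 0.00505 without vector 1 to 0.166 without miR-34a 3, and C1qb passed in 1 of the 6 fits that left out an array, the one without vector 1, where the difference was 0.78 ± 0.12. The direction was the same in all 6. Of all genes, the share that passed as higher in such fits ran from 0.791% without miR-34a 3 to 10.1% without vector 1.

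Other probe sets of C1qb gave the same direction with more spread. The first had intensities of 2513, 1952 and 2614 in miR-34a samples, against 723, 1927 and 1381 in vector samples, so that miR-34a 2 and vector 2 nearly coincided. The second had 2518, 1881 and 2647 in miR-34a samples, against 626, 1894 and 1216 in vector samples, and here vector 2 exceeded miR-34a 2. Both carry a suffix with which the array maker marks probes that may bind other transcripts. Their differences were 0.90 ± 0.33 and 1.03 ± 0.36 (SE), or 0.52 and 0.61 without vector 1, and neither passed when each probe set was tested on its own (limma adjusted p = 0.116 and 0.110 over 20380 probe sets). The main probe set passed that test (limma adjusted p = 0.0387), where 6.47% of probe sets passed as higher.

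C1qc, which encodes the C chain, had intensities of 3012, 2702 and 3464 in miR-34a samples 1, 2 and 3, against 1088, 2598 and 2246 in vector samples 1, 2 and 3. The groups did not overlap, but miR-34a 2 lay only just above vector 2. The difference was 0.71 ± 0.31 (SE; 95% confidence interval -0.01 to 1.43), 1.64-fold, and did not pass (limma adjusted p = 0.183). Without vector 1 it was 0.33 ± 0.12 (adjusted p = 0.113). The C1q genes thus shared the low vector 1 value, which differed from the mean of vector 2 and vector 3 by -1.01, -1.06 and -1.14 log2 units for C1qa, C1qb and C1qc.

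The C1q genes are also neighbours: in the order C1qb, C1qc, C1qa they were consecutive protein-coding genes of chromosome 4 in the RefSeq table of GRCm38.p6, with Ephb2 before and Epha8 after them. Epha8, which encodes an ephrin receptor, differed by 0.04 and did not pass. The RefSeq promoter table held the start regions of C1qb and C1qc but listed none for C1qa. The 250 bases before each start are shown because these adjacent genes shared their pattern over the arrays; both lie on the minus strand of GRCm38.p6, at chr4:136886201-136886450 for C1qb and chr4:136892915-136893164 for C1qc. Capitals mark matches to the motifs named after them.
C1qb: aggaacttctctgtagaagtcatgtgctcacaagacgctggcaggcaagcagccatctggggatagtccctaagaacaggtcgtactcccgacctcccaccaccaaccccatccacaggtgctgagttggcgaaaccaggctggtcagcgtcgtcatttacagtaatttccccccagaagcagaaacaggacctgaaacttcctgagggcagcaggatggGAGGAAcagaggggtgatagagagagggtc
C1qc: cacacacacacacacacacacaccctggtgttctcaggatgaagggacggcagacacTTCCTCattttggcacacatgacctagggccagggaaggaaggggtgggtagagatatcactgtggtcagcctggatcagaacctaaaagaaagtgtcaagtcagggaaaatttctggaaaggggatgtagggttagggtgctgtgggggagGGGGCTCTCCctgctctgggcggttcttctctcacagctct

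Motifs were searched on both strands in the 250 bases before the start. The core of the myeloid factor PU.1, GAGGAA, matched once before C1qb, beginning 30 bases before the start, and once before C1qc on the other strand, beginning 193 bases before it; 23.3% of 32817 promoters of the same length hold that core. A site of the NF-kappa-B kind, a motif found in 7.25% of promoters, matched before C1qc at 41 bases from the start and overlapped no other match. The letters of the TATA box, TATAAA, held by 12.4%, matched before C3ar1, beginning 235 bases before the start, and in neither C1q window. The interferon gamma activation site TTCNNNGAA, held by 7.01%, and the interferon-stimulated response element of GAAA, any 2 bases and GAAA, held by 2.97%, matched in 0 of the 5 windows of C1qb, C1qc, C3ar1 and C1s1, which says only that these letters are not in these windows. A match is a description of the sequence.

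C1s1 encodes the protease of the C1 complex that cleaves C4 and C2. Its intensities were 721, 466 and 604 in miR-34a samples 1, 2 and 3, against 287, 497 and 472 in vector samples 1, 2 and 3. The groups overlapped, since miR-34a 2 lay below vector 2 and vector 3. The difference was 0.51 ± 0.24 (SE), 1.43-fold, and did not pass (limma adjusted p = 0.209). Without vector 1 it was 0.27 ± 0.16 (adjusted p = 0.309). The single probe set carries a suffix for probes shared by several transcripts, and C1s2, a near copy of C1s1, had none of its own, so the value may hold signal of both.

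C1ra, the gene of the partner protease C1r, lies next to C1s1 in the RefSeq table of GRCm38.p6. It had intensities of 857, 360 and 630 in miR-34a samples, against 92.2, 379 and 314 in vector samples. As for C1s1, vector 1 was lowest and miR-34a 2 was the lowest miR-34a sample. The difference was 1.30 ± 0.52 (SE; limma adjusted p = 0.152), and 0.72 without vector 1 (adjusted p = 0.146).

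C2 and Cfb encode the proteases of the classical and alternative C3 convertases, and stand side by side on chromosome 17 in the same table. C2 had intensities of 354, 317 and 341 in miR-34a samples 1, 2 and 3, against 260, 336 and 294 in vector samples 1, 2 and 3. The values overlapped and spanned a narrow range. Its difference was 0.18 ± 0.11 (SE; 95% confidence interval -0.07 to 0.44; limma adjusted p = 0.326), and 0.09 without vector 1. Cfb had intensities of 3241, 1528 and 2367 in miR-34a samples 1, 2 and 3, against 2178, 1775 and 1276 in vector samples 1, 2 and 3. Unlike for C1q, vector 1 was the highest vector sample for Cfb, and miR-34a samples spanned 2.11-fold, from below vector 2 to above all vector samples. Its difference was 0.41 ± 0.30 (SE; 95% confidence interval -0.28 to 1.11; limma adjusted p = 0.418), 0.59 without vector 1 (adjusted p = 0.202) and 0.16 without miR-34a 1.

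Serping1 encodes C1 inhibitor, the regulator of C1r and C1s. Its intensities were 4654, 2873 and 3526 in miR-34a samples 1, 2 and 3, against 694, 3046 and 2006 in vector samples 1, 2 and 3. Vector samples spanned 4.31-fold, the widest spread among the main probe sets of the 8 genes, and vector 2 exceeded miR-34a 2. The difference, 1.15 ± 0.50 (SE; 95% confidence interval -0.03 to 2.32), or 2.22-fold, was as large as that of C1qb but did not pass (limma adjusted p = 0.187). Without vector 1 it was 0.54 ± 0.23 (adjusted p = 0.146). Its neighbour Ube2l6, which encodes a conjugating enzyme of the interferon-induced modifier ISG15, differed by 0.93 ± 0.30 (SE) and did not pass (limma adjusted p = 0.0961).

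C3ar1 encodes the receptor for the C3a fragment, found on myeloid cells. Its main probe set had intensities of 320.5, 376 and 377 in miR-34a samples 1, 2 and 3, against 288, 286 and 357 in vector samples 1, 2 and 3. Vector 3 exceeded miR-34a 1, and the difference of 0.20 ± 0.12 (SE) did not pass (limma adjusted p = 0.315); it was 0.15 without vector 1. A second probe set had 295, 353 and 313 in miR-34a samples, against 221, 257 and 247 in vector samples. Here the groups did not overlap, and the difference of 0.38 ± 0.10 (SE), 1.30-fold, passed when each probe set was tested on its own (limma adjusted p = 0.0469). Without vector 1 it was 0.32. The vector 1 value of the main probe set differed from the mean of vector 2 and vector 3 by -0.14 log2 units, and that of Serping1 by -1.81. C3ar1 lies between Foxj2, which rose by 0.34, and Necap1, which differed by 0.12 and did not pass.

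**Figure D2:**
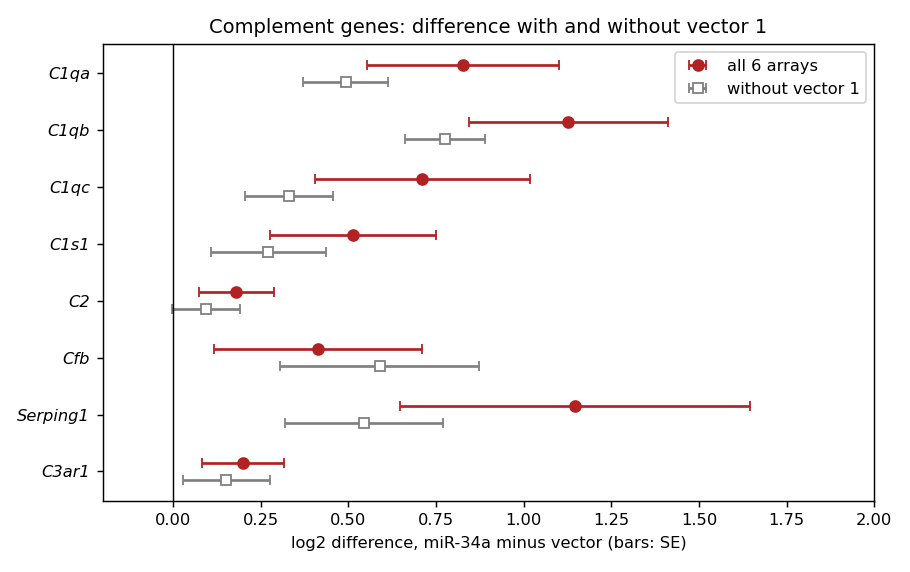
Log2 difference, miR-34a minus vector, of the main probe set of 8 complement genes, with SE from limma, over all 6 arrays (filled) and without vector 1 (open). Leaving out vector 1 lowered 7 of the 8 differences and raised that of Cfb, and 0 of them changed sign.

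Of 47 other complement genes listed 34 were measured. Of these 1 rose, the lectin-pathway protease gene Masp1, and 1 fell, the receptor gene C5ar1, beside 6.5% and 5.25% of all genes. Their median difference was 0.04, against 0.02 for all genes tested, and 19 of the 34 were above 0. Without vector 1 the median was 0.07, 1 rose and 0 fell.

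Masp1 had intensities of 776, 557 and 688 in miR-34a samples 1, 2 and 3, against 392, 298 and 344 in vector samples 1, 2 and 3. The groups did not overlap, and vector 1 was the highest vector sample. The difference was 0.93 ± 0.15 (SE; limma adjusted p = 0.0133), and 1.02 without vector 1 (adjusted p = 0.00421). The call was kept in 4 of the 6 fits that left out an array. The 5 probe sets of Masp1 disagreed, with differences from -0.11 to 1.10. A second probe set, at 1.10 ± 0.18 (SE), also passed on its own (limma adjusted p = 0.0117), while the other 3 differed by -0.11, 0.05 and 0.16 and did not. Both Masp1 probe sets that passed carry the suffix for probes shared by several transcripts, as for C1s1. The one at 0.16 carries the suffix seen in the further C1qb probe sets, and those at -0.11 and 0.05 carry neither. C5ar1, the receptor of the C5a fragment on myeloid cells, had intensities of 426, 408 and 504 in miR-34a samples 1, 2 and 3, against 648, 571 and 580.3 in vector samples 1, 2 and 3. All miR-34a values lay below all vector values, a direction opposite to that of C3ar1. Its difference was -0.42 ± 0.11 (SE; limma adjusted p = 0.0467). C5ar1 passed in 0 of the 6 fits that left out an array (limma adjusted p = 0.0559 without vector 1), with differences of -0.51 to -0.36. Of all genes 1.82% to 17.2% passed in these fits, in either direction.

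The remaining pathway genes did not pass. Cfp, the gene of properdin, which stabilises the alternative convertase, had 578, 669 and 741 in miR-34a samples, against 313, 546 and 399 in vector samples, a difference of 0.67 ± 0.20 (SE; limma adjusted p = 0.0723). Hc, the gene of mouse C5, differed by 0.45 ± 0.13 (adjusted p = 0.0761), and Cfi, which encodes the protease factor I that inactivates C3b, by 0.33 ± 0.10 (adjusted p = 0.0836). In these 3 genes and in Masp1, C6 and Itgax all miR-34a values lay above all vector values, 6 of the 34, beside 20.8% of all genes. Without vector 1 the differences of Cfp, Hc and Cfi were 0.48, 0.48 and 0.33. Differences of membrane regulators were small: 0.18 for Cd55 and 0.12 for Cd59a, which encode inhibitors of the convertases and of the membrane attack complex, and -0.11 for Cr1l, which encodes the rodent regulator Crry. Genes of the terminal complex, C6, C8a, C8b, C8g and C9, ran from -0.08 to 0.18. The genes C4b and Cfd had no probe set annotated to them alone and were not analysed here.

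**Figure D3:**
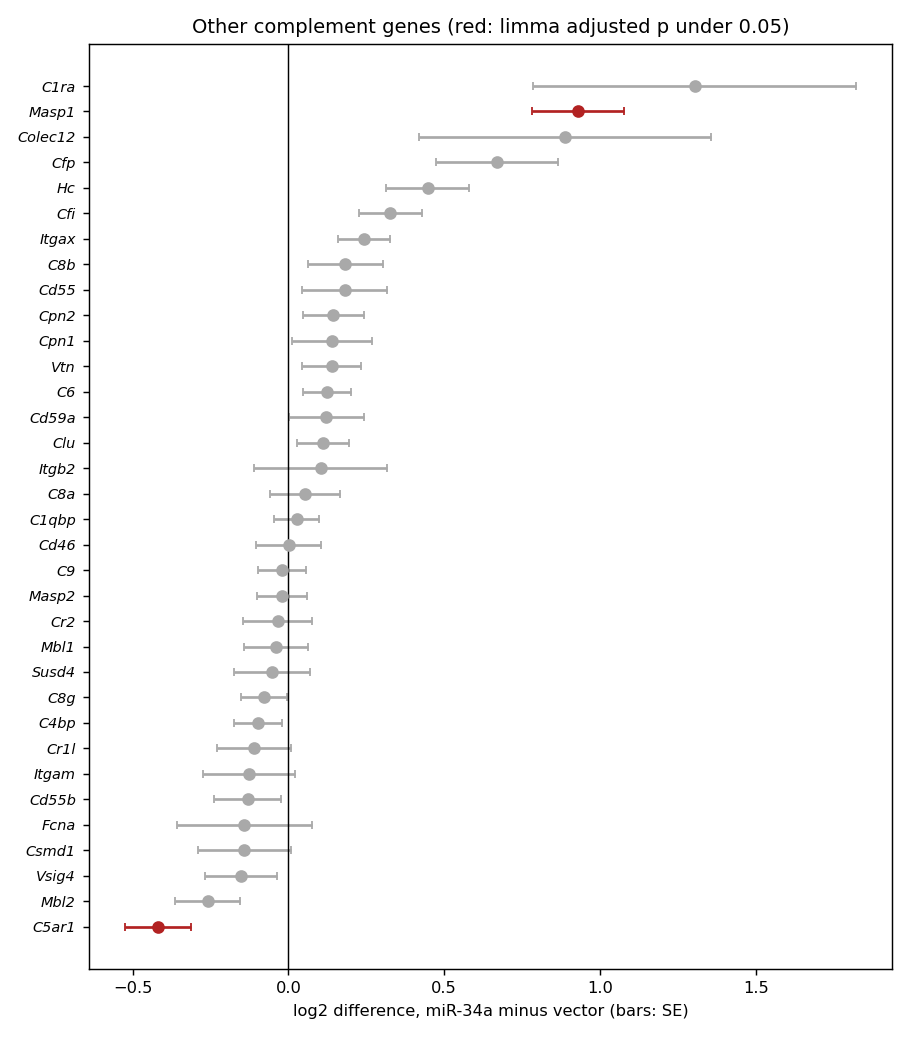
Log2 difference, miR-34a minus vector, of 34 other complement genes with SE from limma; red points passed an adjusted p under 0.05. Masp1 at 0.93 and C5ar1 at -0.42 passed, and C1ra at 1.30 did not.

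Marker lists of cells that can make complement were set beside these genes. In a macrophage list of 22 genes without the C1q genes, 21 were measured, 16 were above 0, 2 rose, 1 fell, and the median difference was 0.34, or 0.19 without vector 1. Over all genes 6.5% rose, 5.25% fell and 54.3% were above 0. Without vector 1, 4 genes of the macrophage list rose and 1 fell, beside 1247 and 886 of all 12393 genes. Its summed intensity ran from 30321 to 34620 in miR-34a samples, against 23216 in vector 1 and 30112 and 31819 in the other vector samples. Its dimmest member, Marco, averaged 155 over the 6 arrays, and none was listed at 0. Csf1r, the receptor that sustains macrophages, had 2696, 2749 and 3246 in miR-34a samples, against 1847, 2897 and 2193 in vector samples, a difference of 0.34 (limma adjusted p = 0.238). The lysosomal protease gene Ctss differed by 0.47 and by 0.01 without vector 1, the lysozyme gene Lyz2 by 0.54 and 0.10, and Cd14 by -0.42 and -0.15, and none of these passed. The Fc receptor gene Fcgr1 rose by 0.98 and the signalling chain gene Fcer1g by 0.48, while the mannose receptor gene Mrc1 fell by 0.99. Of the 6 fits that left out an array, Fcgr1 and Fcer1g each passed in 2 and Mrc1 in 6. In these fits 1.82% to 17.2% of all genes passed, in either direction. Relative to the mean over the 6 arrays, the C1q genes deviated on average by 0.33 to 0.62 log2 units in miR-34a samples, against -1.16, -0.01 and -0.17 in vector samples 1, 2 and 3, and the macrophage list by 0.04 to 0.22, against -0.39, 0.09 and -0.06. The part of macrophage content in the C1q differences was not tested.

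Lists of other sources followed vector 1 to different degrees. The fibroblast list had 13 of 14 measured members above 0, 2 that rose (Thy1 and Pcolce) and a median of 0.70, which was 0.09 without vector 1. Its summed intensity was 47819 to 69411 in miR-34a samples, against 19763 in vector 1, 59183 in vector 2 and 46106 in vector 3. Among dendritic cell and MHC class II genes 0 of 10 passed and 4 rose without vector 1, with medians of 0.78 and 0.30 and a summed intensity of 41267 to 46747 in miR-34a samples, against 7188 in vector 1, 35748 in vector 2 and 35133 in vector 3. A list of interferon and NF-kappa-B response genes, a response in which several complement genes are known to be induced, had a median of 1.03 and 5 of 28 that rose, Icam1, Psmb10, Relb, Rsad2 and Tapbp, and a median of 0.59 and 13 that rose without vector 1. Its summed intensity was 56397 to 76869 in miR-34a samples, against 23916 to 45401 in vector samples, so that these groups did not overlap. The share of all genes that rose was itself 6.5% with all arrays and 10.1% without vector 1.

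Medians of the remaining lists lay near 0 except that of mast cells. They were 0.07 for the endothelial list, 0.06 for the epithelial list of the tumour cells themselves, 0.09 for T and NK cells, -0.03 for B cells, -0.05 for hepatocytes, the main source of plasma complement, and 0.01 for neutrophils. Passing members in these were Ocln, which rose in the epithelial list, and S100a9, which fell in the neutrophil list with a difference of -2.98. S100a8 of the neutrophil list differed by -1.41 and did not pass. Without vector 1 both passed as lower (limma adjusted p = 0.00122 for S100a9 and 0.00326 for S100a8), as did 886 of all 12393 genes. Of the 8 neutrophil genes measured 4 were above 0, and their summed intensity was 2851 to 3187 in miR-34a samples, against 3795 to 10597 in vector samples. That sum includes S100a9, at 186 to 251 in miR-34a samples and 868 to 5270 in vector samples. It also includes S100a8, at 349 to 369 and 558 to 2745. Csf3r and Ngp, also among its brighter members, differed by 0.09 and -0.04 and did not pass. The mast cell list had 4 of 8 that rose, Cma1, Cpa3, Fcer1a and Tpsb2, with a median of 1.53. Over all genes 6.5% rose and 5.25% fell. Tpsab1, the brightest of that list, differed by 0.12, Kit by 0.03 and Mcpt4 by 1.14, and none of these passed. The mast cell sum was 5593 to 9673 in miR-34a samples and 2931 to 6158 in vector samples, so that these groups overlapped. In vector 1 the hepatocyte list had a median deviation of 0.32 from the 6-array mean, opposite in sign to that of the C1q genes. The epithelial sum was 85955 to 91627 in miR-34a samples and 81039 to 95132 in vector samples. Whether any of these lists accounts for a complement difference was not tested.

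**Figure D4:**
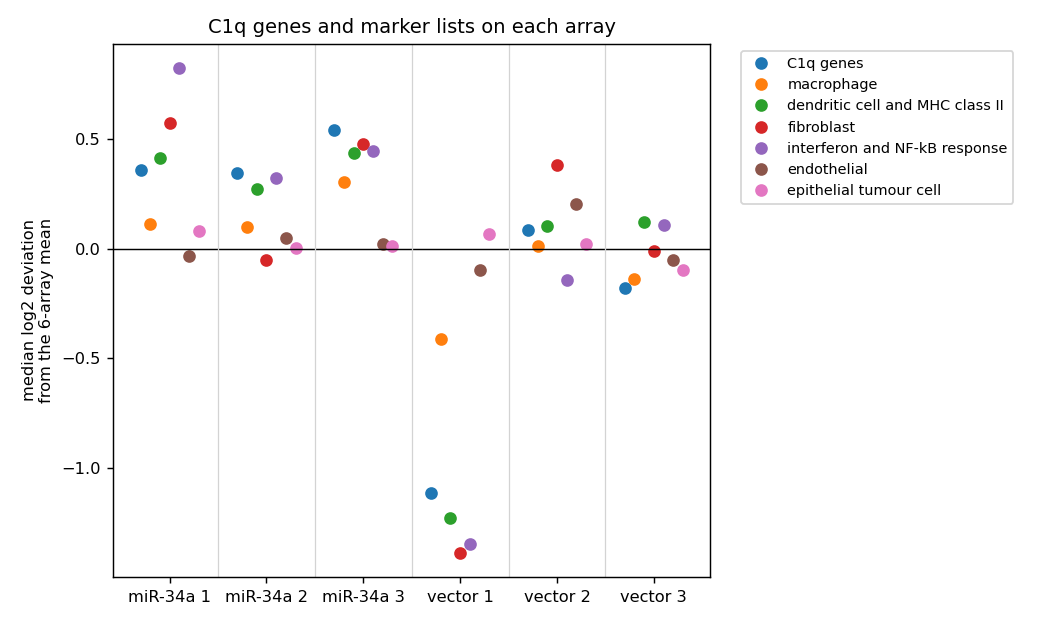
Median log2 deviation from the 6-array mean, on each array, of the C1q genes and 6 gene lists. In vector 1 the C1q genes lie at -1.12, the macrophage list at -0.41 and the fibroblast list at -1.39. On that array genes of MHC class II and dendritic cells lie at -1.23, and the interferon and NF-kappa-B list at -1.35. The endothelial and epithelial lists lie at -0.10 and 0.07 in vector 1.

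Among 6191 genes above the median level, those most like the mean of C1qa, C1qb and C1qc over the 6 arrays were Nrp1, Ifi27l2a, Stx6, Fcgr3 and Bicc1, with Pearson's r from 0.991 to 0.9997. This is a description over 6 arrays that share 2 groups and the low vector 1, and 201 of the 6191 genes had r above 0.95. Nrp1, which encodes a co-receptor of semaphorins and VEGF, had intensities of 1349, 1262 and 1603 in miR-34a samples, against 360, 963 and 856 in vector samples. Fcgr3, a gene of a low-affinity Fc receptor of myeloid cells, had 2861, 2926 and 3462 in miR-34a samples, against 1463, 2549 and 2378 in vector samples. Neither passed, with differences of 1.05 and 0.57 (limma adjusted p = 0.0956 and 0.131) that were 0.61 and 0.32 without vector 1.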

How the data were processed

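Biotin-labelled RNA of 3 miR-34a and 3 vector samples was measured on Affymetrix mouse arrays, per the labels' protocols. The values are linear probe set intensities as deposited by the authors; how they were summarised and normalized is not given in the sources used here. No detection calls were used, so dim signals may be background. Sample titles gave the groups and replicate numbers. Genes were named by the platform annotation, with symbols brought up to date by Entrez identifier in RefSeq GRCm38.p6. Of 22690 probe sets, 20393 had 1 symbol, 691 several and 1606 none listed; 64 control probe sets, 13 of them with 1 symbol, were left out, which leaves 20380 with 1 symbol. Each gene was represented by its brightest probe set with that symbol alone, and log2(intensity + 16), which understates changes of dim genes, was tested with limma 3.58.1 in R 4.3.3 (lmFit, eBayes, two-sided, no block, Benjamini-Hochberg over 12393 genes at 0.05). The procedure was tested on simulated data. Same-numbered samples of the groups did not deviate together (r from -0.168 to -0.081). Alternatives were quantile normalization, median centring, a filter on low genes, pseudocounts of 1 and 64, the mean of or every probe set, a variance trend, array weights, the replicate block, leaving out each array and a threshold of 0.1. Members and lists were chosen with earlier results of these data known. Named genes were the members, other complement genes that passed and a fixed set of them, the brightest members of marker lists, and the genes most like C1q; likeness to C3 could not be computed. List members that passed, and neighbouring genes, were named after their values were seen. Sequences are from RefSeq. Figures used matplotlib 3.10.9 in Python 3.11.15.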

Additional observations from a re-analysis of the deposited data

How the results depend on the processing

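The 8 complement differences kept their sign under all alternatives run. In 121 of 136 comparisons of a gene with an alternative the side of the threshold was also the same; in 11 C1qb no longer passed and in 4 C1qa did. Complement genes that rose, 1, numbered 0 with quantile normalization, median centring, a pseudocount of 1, averaged probe sets or a robust variance trend. They numbered 2 with array weights or a threshold of 0.1. Of all genes 3.64% to 6.94% passed as higher in the former settings. With array weights 15.5% of all genes did so, and at the threshold of 0.1 11.5%. The count that fell was 0 throughout. For C1qb the adjusted p was 0.0518 with quantile normalization, 0.056 with median centring, 0.0514 with a pseudocount of 1, 0.0858 when probe sets were averaged and 0.0749 with the variance trend. Leaving out each array gave 0 to 2 complement genes that rose. Of all genes, the share that passed as higher in these fits ran from 0.791% without miR-34a 3 to 10.1% without vector 1. Of the 34 other complement genes, those that rose, 1, numbered 0 when probe sets were averaged, and 0 to 2 when each array was left out. With array weights or a threshold of 0.1 they numbered 4, beside 15.5% and 11.5% of all genes. Those that fell, 1, numbered 0 with a pseudocount of 1 and 0 when any 1 array was left out. With the replicate number as a block, 0 complement genes rose (C1qb adjusted p = 0.0514) and 0 of the other complement genes fell; over all genes 522 passed with the block, against 1456 without it and 3238 with array weights. Each same-numbered pair correlated below 0, so the numbers show no pairing here. The causes of these changes were not tested, but each fit without an array has fewer samples.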
